A study of Mus musculus with 614 samples.

Results

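The interferon-stimulated genes described here were 40 mouse genes chosen by name from a list of known interferon targets, and all 40 were found among the 43280 gene symbols measured. They were followed in 598 single cells of marrow and 16 of blood from the dendritic cell lineage and its neighbours, in 12 sort gates of untreated adult C57BL/6J mice aged 7 to 10 weeks. The labels name no interferon, virus or other stimulus.

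Interferons are secreted alarm proteins. Type I and type III interferons bind receptors that activate the kinases JAK1 and TYK2, which switch on a transcription factor complex that holds STAT2 and IRF9. The complex binds the interferon-stimulated response element (ISRE) in promoters, a repeat of GAAA. Target genes block viral entry, translation and replication, sense foreign nucleic acid, or feed back on the pathway, and many keep a basal level in the absence of infection. Plasmacytoid dendritic cells are known as strong producers of type I interferon when stimulated.

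The gates were as follows. Plasmacytoid dendritic cells (pDC, 27 cells) were sorted as lineage-negative cells with B220 and SiglecH. Blood pre-DC (16 cells), the only cells not taken from marrow, carried CD11c and Flt3 without MHCII, CD172α or B220. Marrow pre-DC with that phenotype were split by 2 surface proteins into 70 SiglecH+Ly6C- cells, 45 SiglecH+Ly6C+ cells, 68 SiglecH-Ly6C+ cells and 70 SiglecH-Ly6C- cells. Common dendritic cell progenitors (CDP, 58 cells) had Flt3 and intermediate c-Kit without CD11c, MHCII, CD115 or IL7R. The pre-pro-B gate (30 cells) took B220+ CD43+ CD93+ CXCR4+ IL7R+ cells, and common lymphoid progenitors (CLP, 48 cells) had low c-Kit with CD127, CD34 and Flt3. Common monocyte progenitors (cMoP, 66 cells) had CD115, c-Kit and high Ly6C without Flt3 or CD11b. Granulocyte-macrophage progenitors (GMP, 51 cells) had high CD16/32 and no Sca-1. Lymphoid-primed multipotent progenitors (LMPP, 65 cells) had intermediate CD16/32 with Sca-1 and no CD127. The labels name no animal or pool, so each gate counted as 1 sample: spreads below are SDs over cells, no difference between gates was tested, and intervals cover counting error only.

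Levels were given as TPM, corrected for transcript length and scaled to the same total in every cell, so read depth is unknown; the number of genes a cell had at 1 TPM or above, 1001 to 9977, stood in for depth. Cells carried library numbers that fell into 9 runs, and LMPP, cMoP, blood pre-DC and SiglecH-Ly6C+ pre-DC each had a run to themselves. CLP, pre-pro-B and GMP shared a run, as did CDP and 24 of the pDC. Marker genes followed the gate labels in part. Siglech reached 10 TPM in 96.3% of pDC. In CDP Flt3 did in 89.7% of cells and Kit in 20.7%, and in LMPP Cd34 did in 95.4% and Ly6a, which encodes Sca-1, in 47.7%. Although CDP were sorted without IL7R, Il7r reached 10 TPM in 44.8% of them and Dntt in 70.7%, beside 64.6% and 87.5% of CLP. CDP are called here by their gate only. Ly6c2 reached it in 61.4% of the cells gated as SiglecH+Ly6C-, against 7.14% of those gated as SiglecH-Ly6C-. In the pre-pro-B gate the lymphoid genes Il7r and Dntt reached it in 80% and 66.7% of cells, the B-lineage genes Cd79b, Cd79a and Ebf1 in 30%, 6.67% and 6.67%, and the pDC genes Siglech and Tcf4 in 100% and 96.7%, so these cells are called here by their gate only. GMP-list genes were at a median summed level of 255 TPM per cell in CLP and 37.9 TPM in pre-pro-B cells of the shared run, beside 29127 TPM in GMP. Macrophage genes were at a median summed level of at most 9.53 TPM in every gate. In blood pre-DC Flt3, Irf8, Itgax and Cd209a reached 10 TPM in 31.25%, 43.75%, 25% and 56.25% of cells. In SiglecH-Ly6C+ pre-DC they did in 41.18%, 63.24%, 32.35% and 91.18%. Monocyte-list genes were at a median summed level of 12340 TPM in blood pre-DC and 8006 TPM in SiglecH-Ly6C+ pre-DC, beside 7732 TPM in cMoP. These pre-DC are likewise called by their gate only. The part of monocyte RNA in their member values was not tested.

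The promoter sequences are shown first because the ISRE is the element through which interferon is known to act on its targets. RefSeq promoter windows (GRCm38.p6, from 250 bases before to 50 bases after a gene's start) matched 28 of the 40 members; Dhx58, Oas2, Rtp4, Usp18, Mx1, Mx2, Parp9, Parp14, Ifi204, Ifi27l2a, Ifi27 and Zbp1 had no entry. The ISRE core, searched as GAAA, any 2 bases and GAAA on both strands, was present in 17 of the 28 (60.7%) and in 3.99% of 27025 genes with a window. The gamma-activated sequence, searched as TTCNNNGAA, was present in 25% of matched members and 9.55% of all genes, and none of the 26 ISRE matches overlapped one. A match is a string of letters and not a measured binding site. The windows of the most widely detected members with a match, Ifi203 (chr1:173942443-173942742, minus strand, the one of its RefSeq starts with a match) and Trim30a (chr7:104465144-104465443, minus strand), read as follows, 5′ to 3′ along the gene with the match in capitals.
Ifi203: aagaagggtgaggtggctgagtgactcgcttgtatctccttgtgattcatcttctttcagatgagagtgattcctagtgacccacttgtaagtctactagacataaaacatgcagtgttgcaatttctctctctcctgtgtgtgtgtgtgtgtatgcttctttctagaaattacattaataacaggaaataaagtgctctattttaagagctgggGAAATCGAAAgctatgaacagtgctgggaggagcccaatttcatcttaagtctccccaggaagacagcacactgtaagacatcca
Trim30a: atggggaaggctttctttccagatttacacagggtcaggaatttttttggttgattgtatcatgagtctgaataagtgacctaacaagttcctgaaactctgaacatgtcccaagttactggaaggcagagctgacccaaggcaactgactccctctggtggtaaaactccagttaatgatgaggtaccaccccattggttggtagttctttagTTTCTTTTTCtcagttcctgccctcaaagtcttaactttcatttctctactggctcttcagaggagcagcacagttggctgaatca

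Single matches with their flanks show that the element was shared by members detected in most cells and by members detected in almost none. Each line gives 30 bases read on the strand that spells GAAA, with the match in capitals.
Ifi203: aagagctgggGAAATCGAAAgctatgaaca
Ifi205: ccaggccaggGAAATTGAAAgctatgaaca
Eif2ak2: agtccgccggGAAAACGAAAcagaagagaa
Ddx58: ctggccatagGAAATCGAAActgcctcagg
Irgm1: tcaagaaataGAAACCGAAActgattctca
Gbp3: ctgggaaataGAAACTGAAActgtgtcctg
Isg15: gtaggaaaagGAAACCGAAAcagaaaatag
Ifit1: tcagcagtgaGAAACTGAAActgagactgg
Rsad2: tctgttttctGAAAATGAAAgttggaccag
The Ifi203 match (chr1:173942518-173942527) was centred 30 bases before the gene's start and the match of its neighbour Ifi205 printed here (chr1:174031880-174031889) 129 bases before. In Isg15 (chr4:156200881-156200890), Ifit1 (chr19:34640804-34640813) and Rsad2 (chr12:26456563-26456572) the printed matches were centred 67, 80 and 115 bases before the start. Those of Eif2ak2 and Ddx58 lay 23 and 7 bases after it. Ifi203 reached 10 TPM in 83.4% of all cells, while Isg15 did in 2.77% and Ifit1 and Rsad2 in 1.79% each.

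**Figure D1:**
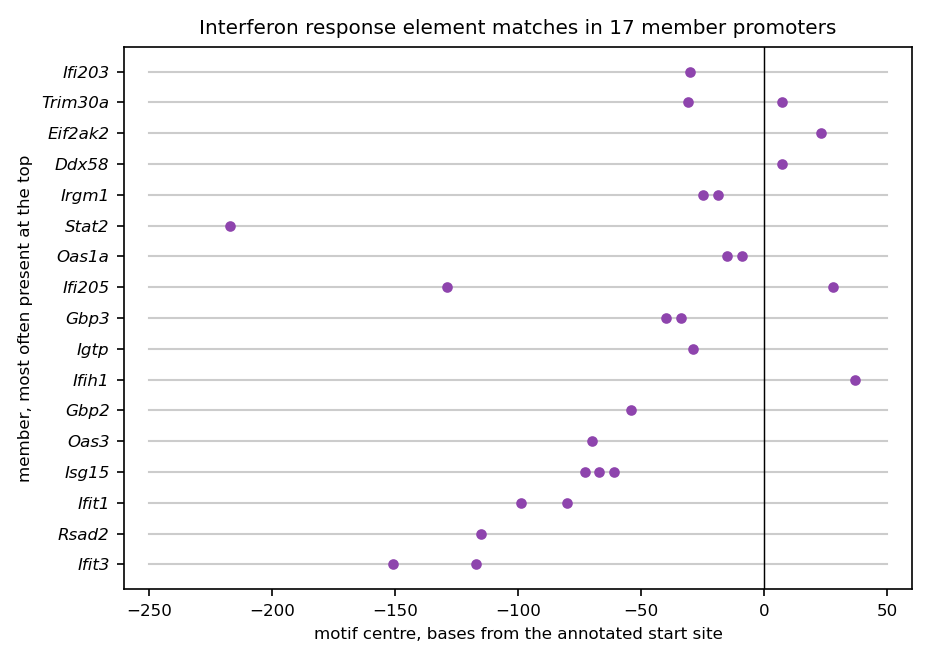
Distance in bases from the start site (0) of each ISRE core match in the RefSeq promoter windows of the 17 members that hold one, 1 row per member; negative distances are before the start. Matches lie on both sides of the start, and members with a high and a low share of cells at 10 TPM or more both hold them.

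The members differed widely in how often they were detected. A gene was counted as present in a cell at 10 TPM or more. By that measure 4 members were present in at least 50% of all cells: Ifi203 (83.4%), a HIN-200 family protein of the nucleic acid-sensing kind; Trim30a (67.9%), a TRIM protein known in the mouse as a brake on toll-like receptor signalling; Samhd1 (54.2%), which hydrolyses the deoxynucleotides that viruses need; and Ifi27l2a (50.7%), a small hydrophobic protein of the IFI27 family. Another 7 members were present in 20 to 50% of cells, 10 in 10 to 20%, and 19 in fewer than 10%. The median over all 40 members was 10.7% of cells. It was 13.5% over the 14011 genes tested (those reaching 1 TPM in 5% of all cells or more). Of the 40, 37 were among the genes tested, and Ifit1, Rsad2 and Ifit3 were not, so these medians cover unlike sets. The middle member of the 37 by rank, Dhx58, was present in 13.5% of cells, the same as the median gene tested.

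Ranked by mean level in each gate, the same few genes led nearly everywhere. Ifi203 was among the 5 highest members in all 12 gates, Trim30a in 11, Samhd1 in 10 and Ifi27l2a in 8. At the other end, Isg15, a ubiquitin-like modifier, was present in 17 cells, Ifit1, which binds viral RNA caps, in 11, Rsad2 (viperin) in 11 and Ifit3 in 1. Oas1a (17.8%), Usp18 (16.1%), Mx1 (13.5%) and Cmpk2 (10.3%) lay in between. The IFIT and OAS genes and Isg15, Usp18 and Herc6, which attach or remove ISG15, make up 11 members, and 318 cells had none of these 11 present.

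**Figure D2:**
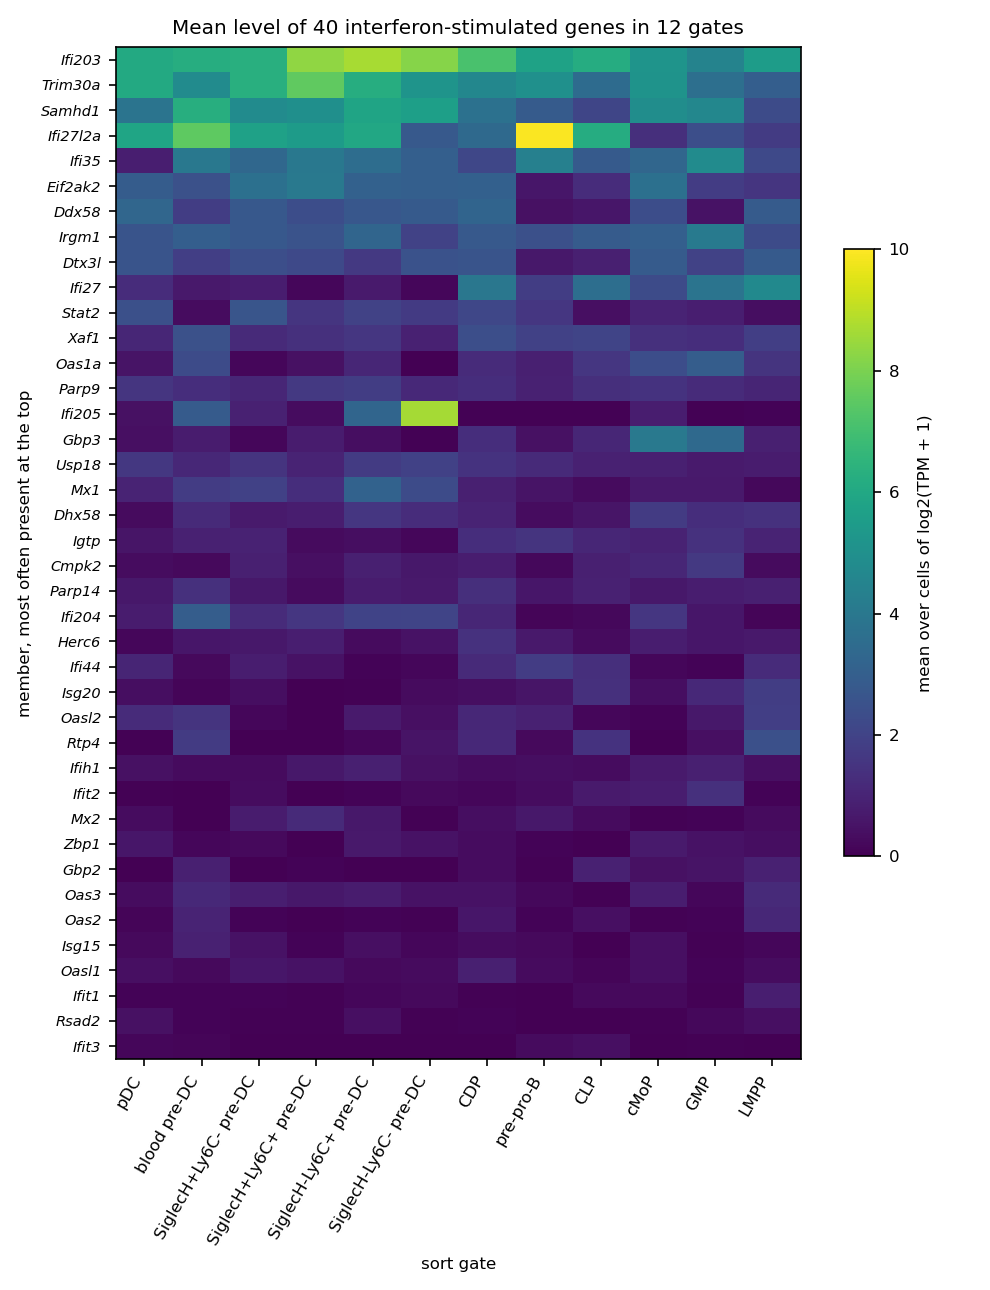
Mean of log2(TPM + 1) over the cells of each gate (columns) for the 40 members (rows, most often present at the top). Colour gives the mean level. Ifi203 and Trim30a are high in most columns, while Ifi205 is at 8.64 in SiglecH-Ly6C- pre-DC, with 3.25 the next highest mean.

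Across gates the members were no more variable than other genes. The range between the highest and the lowest gate mean had a median of 1.78 on the log2(TPM + 1) scale over the 37 members tested, against 2.05 over all genes tested; the range was 2 or more for 45.9% of these members and 50.95% of all genes tested. No gate held most of the maxima: 7 members were highest in LMPP, 5 each in GMP and blood pre-DC, and 4 each in cMoP and SiglecH-Ly6C+ pre-DC. No like count over all genes tested stands beside these, so they are not read as a trait of the members. By another measure, 34.9% of genes tested were higher in GMP than in the other gates by 1 or more. That share was 30.5% in cMoP, 4.15% in SiglecH-Ly6C+ pre-DC, 4.10% in blood pre-DC and 4.07% in LMPP.

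The number of members present per cell was highest in GMP, at 8.78 ± 2.94 (SD, n = 51 cells), followed by cMoP at 8.09 ± 3.60 (n = 66), SiglecH-Ly6C+ pre-DC at 7.99 ± 3.22 (n = 68) and blood pre-DC at 7.75 ± 4.06 (n = 16). CDP had 7.41 ± 2.72 (n = 58). SiglecH+Ly6C- pre-DC had 6.93 ± 2.82 (n = 70), SiglecH-Ly6C- pre-DC 6.81 ± 2.75 (n = 70) and SiglecH+Ly6C+ pre-DC 6.73 ± 2.67 (n = 45). LMPP (6.49 ± 3.54, n = 65), pDC (6.11 ± 3.30, n = 27), pre-pro-B cells (6.10 ± 2.88, n = 30) and CLP (6.00 ± 3.17, n = 48) were lowest. Counted at 100 TPM or more the order turned: GMP (2.12) and cMoP (2.68) had the fewest members per cell, and SiglecH-Ly6C+ pre-DC (4.78) and blood pre-DC (4.44) the most. At 10 TPM the SD over cells within a gate ran from 2.67 to 4.06, about as wide as the span between the lowest and the highest gate. Within SiglecH+Ly6C- pre-DC the 19 cells of one run had 7.95 ± 3.08 and the 51 cells of the other 6.55 ± 2.64.

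The order changed when all genes were counted the same way. GMP cells had 21.96% of the members present and 32.5% of all genes tested, and cMoP cells 20.2% and 30.3%. In SiglecH-Ly6C+ pre-DC the members stood at 19.96% against 18.4% of all genes tested, and in blood pre-DC at 19.4% against 15.3%. LMPP stood at 16.2% for both. In the remaining gates the members were below the genes at large: 15.3% against 16.3% in pDC, 17.3% against 21.2% in SiglecH+Ly6C- pre-DC, 16.8% against 19% in SiglecH+Ly6C+ pre-DC and 17.04% against 17.8% in SiglecH-Ly6C- pre-DC. The same held for CDP (18.5% against 21.9%), pre-pro-B cells (15.3% against 18.6%) and CLP (15% against 17.7%). The median number of genes at 1 TPM or more per cell was 6671 in cMoP and 5792 in GMP, and between 3280 and 5208 in the other gates. Their part in the members' count was not tested.

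The mean level over all 40 members gave another order, led by SiglecH-Ly6C+ pre-DC at 1.70 and blood pre-DC at 1.69 on the log2(TPM + 1) scale, then CDP at 1.56, SiglecH-Ly6C- pre-DC at 1.54, cMoP and SiglecH+Ly6C- pre-DC at 1.47 and SiglecH+Ly6C+ pre-DC at 1.46. GMP, first by count, had 1.40. LMPP had 1.34, pDC 1.33, pre-pro-B cells 1.28 and CLP 1.24. SDs over cells ran from 0.396 in GMP to 0.778 in blood pre-DC, about as wide as the span of the gate means.

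**Figure D3:**
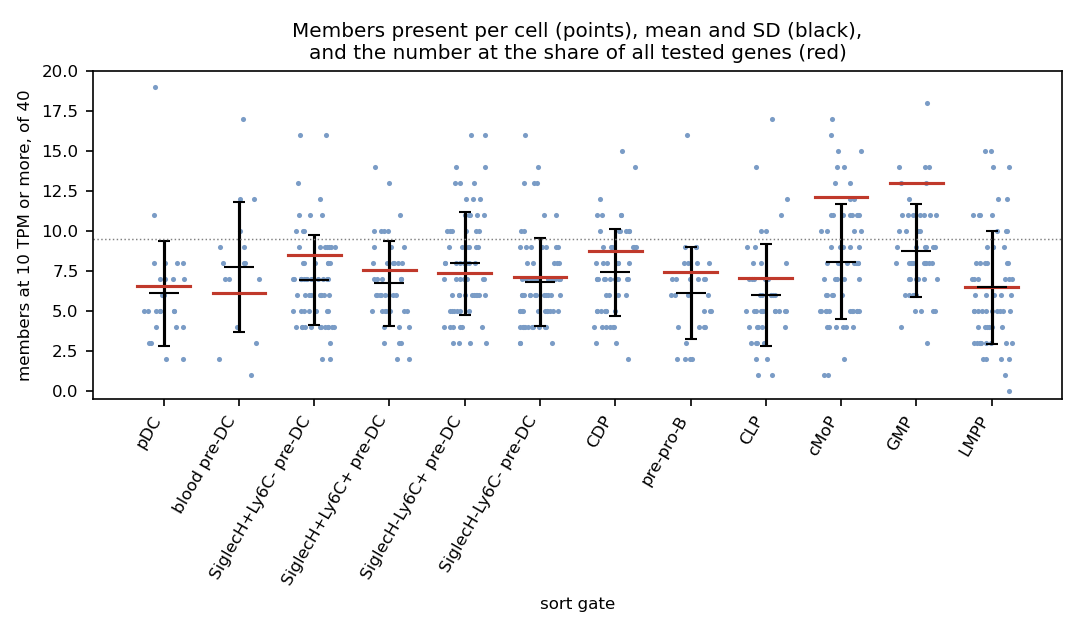
Members at 10 TPM or more in every cell, by gate; each point is a cell, black marks give mean ± SD over cells, the red line is the number of 40 that the gate's share for all genes tested would give, and the dotted line separates cells with 10 or more. The red line lies above the mean in GMP and cMoP and below it in SiglecH-Ly6C+ and blood pre-DC.

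The HIN-200 genes Ifi203, Ifi204 and Ifi205 lie in one cluster on chromosome 1 and encode nuclear and cytosolic DNA-binding proteins. Ifi205 (chr1:174011998-174031810, minus strand, GRCm38) had its highest median in SiglecH-Ly6C- pre-DC. There it spanned 0 to 4495 TPM with a median of 1139 TPM, and it was present in 61 of 70 cells. In SiglecH-Ly6C+ pre-DC it spanned 0 to 2806 TPM with a median of 0.995 TPM and was present in 24 of 68 cells, and in blood pre-DC it spanned 0 to 4829 TPM and was present in 4 of 16. In cMoP it was present in 6 of 66 cells and in SiglecH+Ly6C- pre-DC in 6 of 70, one of which, cell 45, held the highest value of all at 5716 TPM, while pDC, SiglecH+Ly6C+ pre-DC and LMPP each had it in 1 cell. No CDP, pre-pro-B, CLP or GMP cell reached 10 TPM. Its mean level was 8.64 ± 3.50 on the log2(TPM + 1) scale in SiglecH-Ly6C- pre-DC, and cells at 0 occurred in every gate.

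Ifi203 (chr1:173920407-173942672, minus strand) was the broadest member. It had a median of 573 TPM in SiglecH-Ly6C+ pre-DC (0.40 to 3502 TPM, 67 of 68 cells present), 631.5 TPM in SiglecH+Ly6C+ pre-DC (0.45 to 3041 TPM, 41 of 45) and 507 TPM in SiglecH-Ly6C- pre-DC (0.46 to 2692 TPM, 67 of 70). It was lowest in GMP, at a median of 29.4 TPM (0 to 321 TPM, 37 of 51). Cells of all gates overlapped. Ifi204, known in the mouse as a relative of human IFI16, was highest in blood pre-DC at 2.96 on the log2 scale and at 2.06 in SiglecH-Ly6C- pre-DC. At least 1 of the 3 occurred at 10 TPM or more in 98.6% of the SiglecH-Ly6C- cells and in 72.3% of LMPP. These genes have near-identical copies, and reads shared between copies could have been divided in the authors' estimates, so their separate levels are uncertain. Of the 104 cells with Ifi205, 97.1% also had Ifi203, beside 83.4% of all cells; they made up 19.7% of the 512 cells with Ifi203.

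The 2 IFI27-family genes lie 1928 bases apart on opposite strands of chromosome 12 and were listed with different gate patterns. Both were counted among the members of clusters of near-identical genes, so their separate levels are uncertain. Ifi27l2a (chr12:103442167-103443680, minus strand) led the pre-pro-B gate, where it spanned 0 to 13299 TPM with a median of 2260 TPM and was present in 28 of 30 cells. Blood pre-DC had a median of 587 TPM (12 of 16 cells) and CLP 276 TPM (33 of 48). SiglecH-Ly6C+, SiglecH+Ly6C- and SiglecH+Ly6C+ pre-DC and pDC had medians of 153, 127.5, 99.8 and 84.0 TPM. It was present in 25 of 58 CDP, 20 of 51 GMP, 21 of 70 SiglecH-Ly6C- pre-DC, 14 of 66 cMoP and 13 of 65 LMPP. Every gate had cells at 0 and at least 1 cell at 495.9 TPM or more.

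Ifi27 (chr12:103434211-103440239, plus strand) was instead highest in progenitors. LMPP had it in 37 of 65 cells (0 to 2250 TPM, median 34.7 TPM), GMP in 28 of 51, CDP in 27 of 58, cMoP in 21 of 66 and CLP in 18 of 48. SiglecH+Ly6C+ pre-DC had it in none of 45 cells (upper limit of the share 6.67%), SiglecH-Ly6C- pre-DC in 2 of 70 and SiglecH-Ly6C+ pre-DC in 4 of 68. On the log2(TPM + 1) scale LMPP were at 4.75 ± 4.26, CDP at 3.98 ± 3.55, GMP at 3.86 ± 3.41 and CLP at 3.62 ± 4.18, neighbours that lie well within their SDs. Of the 154 cells with Ifi27, 76 also had Ifi27l2a (49.4%), and Ifi27l2a was present in 50.7% of all cells.

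The interferon-inducible GTPases, which attack vacuoles that hold pathogens, had their highest mean level as a group in GMP (2.35) and cMoP (2.13). Singly, Gbp2 was highest in CLP (0.925) and Igtp in pre-pro-B cells (1.495). At least 1 of Gbp2, Gbp3, Igtp and Irgm1 was present in 80.4% of GMP and 72.7% of cMoP, against 17.1% of SiglecH-Ly6C- pre-DC. Gbp3 (chr3:142560026-142573209, plus strand) was present in 39 of 66 cMoP (0 to 421 TPM, median 29.3 TPM) and 27 of 51 GMP (0 to 308.5 TPM, median 13.2 TPM), and its median was 0 in the other gates. CDP followed with 10 of 58 cells and CLP with 7 of 48, and no SiglecH-Ly6C- pre-DC had it. Irgm1, an autophagy-linked GTPase, was present in 30 of 51 GMP and 26 of 66 cMoP; its mean was 4.07 on the log2 scale in GMP and 1.97 in SiglecH-Ly6C- pre-DC, its lowest gate. The Gbp genes lie in a cluster of close copies on chromosome 3, and their separate levels are uncertain. GMP and cMoP also had the most genes detected per cell, and the part of this in the GTPase values was not tested.

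**Figure D4:**
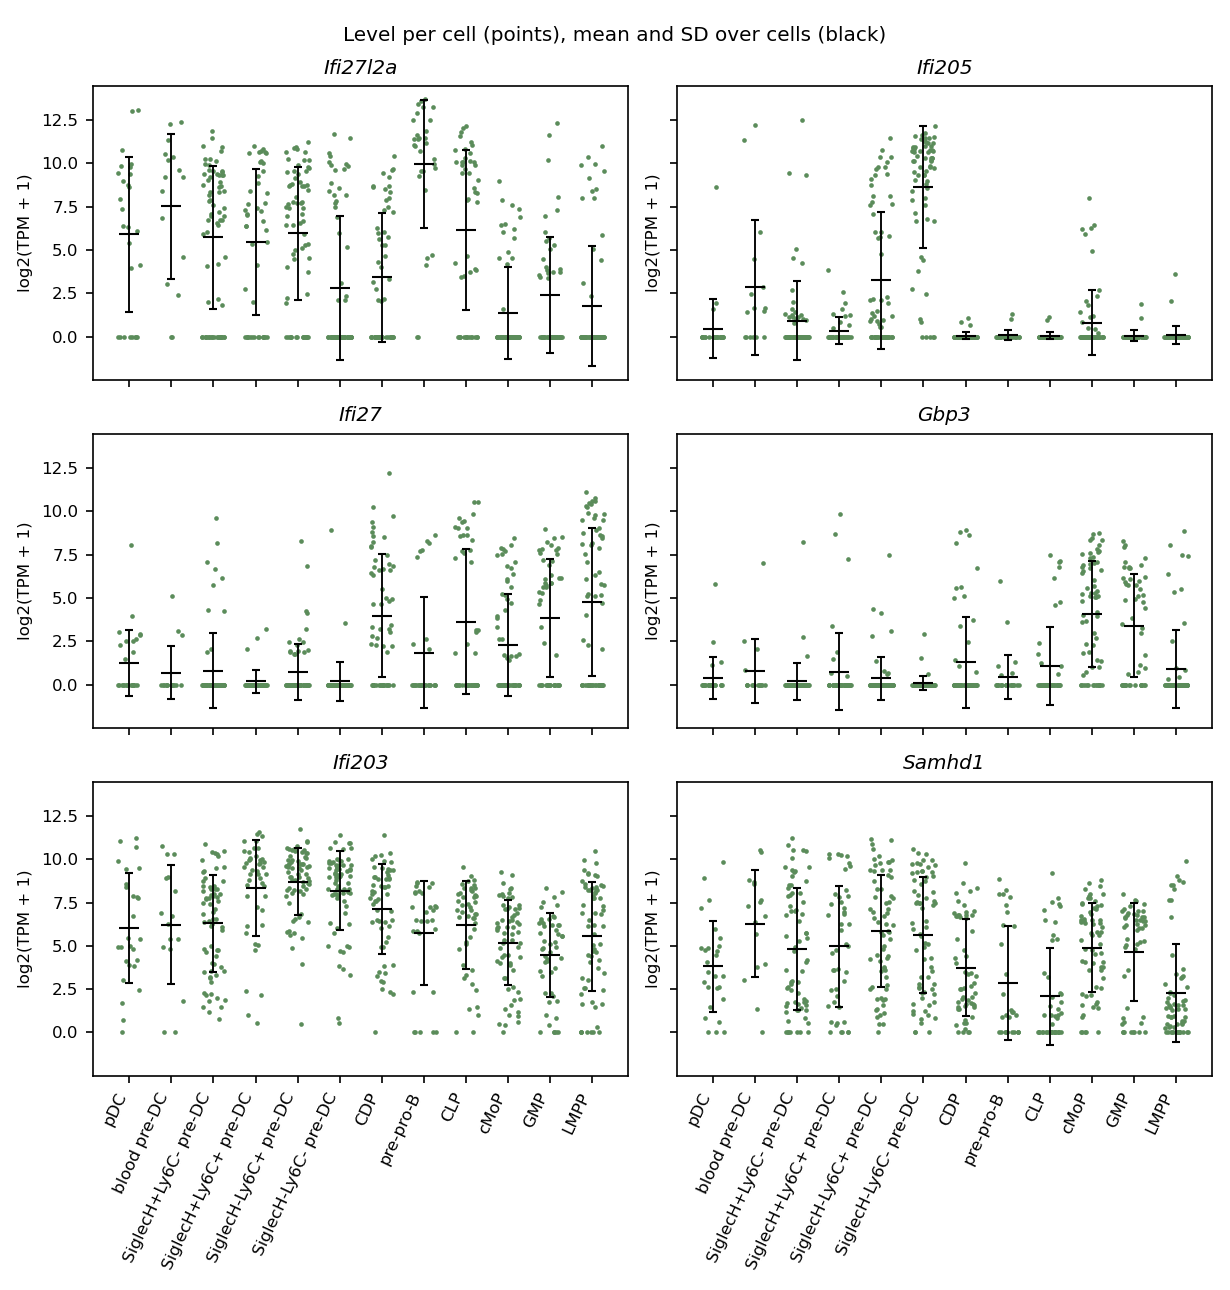
TPM of Ifi27l2a, Ifi205, Ifi27, Gbp3, Ifi203 and Samhd1 in each cell on a log2(TPM + 1) axis, by gate; each point is a cell and bars give the mean. Ifi205 is high in SiglecH-Ly6C- pre-DC, Ifi27l2a in the pre-pro-B gate and Gbp3 in cMoP and GMP, with cells at 0 in each of them.

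The oligoadenylate synthetases make a second messenger that activates RNase L, and the OAS-like genes are their relatives. At least 1 of the 5 was present in 54.9% of GMP, 50.8% of LMPP, 46.97% of cMoP and 43.8% of blood pre-DC, against 8.57% for SiglecH+Ly6C- pre-DC and 4.29% for SiglecH-Ly6C- pre-DC. Different members made up these shares. Oas1a was present in 25 of 51 GMP, 26 of 66 cMoP and 6 of 16 blood pre-DC and was listed at 0 in all 70 SiglecH-Ly6C- pre-DC, with an upper limit of the share of 4.29%. Oas2, Oas3 and Oasl2 had their highest means in LMPP, at 1.13, 1.19 and 1.87 on the log2 scale, and SiglecH+Ly6C+ pre-DC had the lowest for Oas2 and Oasl2. Oas1a, Oasl1 and Oasl2 were counted among the members of near-identical clusters, so their separate levels are uncertain. Oas2 and Oas3 were not. Per cell, 32.5% of all genes tested were present in GMP and 30.3% in cMoP, against 15.3% in blood pre-DC to 21.9% in CDP over the other gates. The part of this broad detection in the OAS shares was not tested.

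The IFIT genes bind viral RNA and were the least detected role. Any of the 3 was present in 25.5% of GMP, 15.2% of cMoP, 10.8% of LMPP and 10.4% of CLP, in at most 4.29% of every other gate, and in no SiglecH+Ly6C+ or blood pre-DC. Ifit2 made up the GMP share, with a mean of 1.39 in GMP and 0.80 in cMoP on the log2 scale. Ifit1 had its highest mean in LMPP, at 0.85. Ifit3 was counted among the members of near-identical clusters, so its separate level is uncertain. As for the OAS genes, the part of broad detection in the GMP and cMoP shares was not tested.

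Among the nucleic acid sensors, Ddx58 (RIG-I) and Eif2ak2 (PKR, a kinase that stops translation on double-stranded RNA) were the most detected. Any of the 5 sensors was present in 75.8% of cMoP, 75.6% of SiglecH+Ly6C+ pre-DC, 72.4% of CDP and 70.4% of pDC, against 29.2% of CLP and 20% of pre-pro-B cells. Ddx58 was present in 16 of 27 pDC (0 to 86.8 TPM, median 13.7 TPM) and 30 of 58 CDP (median 10.1 TPM), and in 3 of 48 CLP, 2 of 30 pre-pro-B cells and 4 of 51 GMP. Those last 3 gates share a library run, and whether the run bears on these values was not tested. Eif2ak2 was highest in SiglecH+Ly6C+ pre-DC at 4.06 and lowest in pre-pro-B cells at 0.60. Ifih1 (MDA5) and Zbp1, a sensor of Z-form nucleic acid, had means of at most 0.88 and 0.71 in any gate.

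Antiviral effectors made up the largest role, with 11 members. Trim30a (chr7:104409025-104465193, minus strand) was detected at that level in 44 of 45 SiglecH+Ly6C+ pre-DC (0.69 to 4223 TPM, median 190 TPM), against 28 of 65 LMPP (median 0.24 TPM), its lowest gate. Samhd1 (chr2:157097533-157135265, minus strand) was present in 13 of 16 blood pre-DC (0 to 1511 TPM, median 130 TPM) and 50 of 68 SiglecH-Ly6C+ pre-DC (median 64.8 TPM), against 11 of 48 CLP and 12 of 65 LMPP. Ifi35, a leucine zipper protein, was present in 40 of 51 GMP (0 to 255 TPM, median 45.9 TPM) and 3 of 27 pDC. Its maximum in pDC was 971 TPM, above every GMP cell. Mx1, a dynamin-like GTPase known to carry an inactivating deletion in C57BL/6 mice, was most often present in SiglecH-Ly6C+ pre-DC, in 25 of 68 cells (0 to 1559 TPM), and least often in LMPP, in 1 of 65. Rtp4, a receptor transporter protein, was highest in LMPP, with a mean of 2.42 on the log2 scale, and was listed at 0 in all 66 cMoP. Isg20, an RNA exonuclease, was also highest in LMPP, at 1.81. Trim30a, Mx1 and Mx2 were counted among the members of near-identical clusters, so their separate levels are uncertain.

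Stat2, the signalling member, averaged 2.65 in SiglecH+Ly6C- pre-DC and 2.44 in pDC, against 0.33 in blood pre-DC, 0.38 in LMPP and 0.41 in CLP. Usp18, the protease that removes ISG15 and damps the receptor, was present in 16.1% of all cells, more often than Isg15 itself. Of the 17 cells with Isg15, 5 also had Usp18 (29.4%). Parp9 and Dtx3l encode partners in ADP-ribosylation and ubiquitin transfer. Their annotated 5′ ends overlap by 681 bases on opposite strands. The strand used in the authors' estimates is not given in the sources used here, so reads within the overlap cannot be assigned to either. Both were present in 33 cells, 30.8% of those with Parp9 and 20% of those with Dtx3l. Of all cells, 26.9% had Dtx3l and 17.4% had Parp9.

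Setting each gate beside the mean of the other 11 showed which members drove it. A difference of 1 on the log2 scale (2-fold) was used to name them, and the share of all genes tested past the same line was read beside each count. In SiglecH-Ly6C+ pre-DC 6 of the 40 members (15%) were higher by 1 or more, against 4.15% of genes tested: Ifi203, Mx1, Ifi205, Samhd1, Trim30a and Ifi27l2a. In blood pre-DC 6 (15%) were higher, against 4.10%: Ifi27l2a, Samhd1, Ifi204, Ifi205, Rtp4 and Oas1a. For LMPP 4 (10%) were higher, against 4.07%, namely Ifi27, Rtp4, Isg20 and Oasl2, and 10 (25%) were lower, against 13.5%, among them Ifi27l2a, Trim30a and Samhd1. SiglecH-Ly6C- pre-DC had 4 higher (Ifi205, Ifi203, Samhd1 and Mx1), against 3.83%. The pDC gate had 4 higher (Ddx58, Stat2, Ifi27l2a and Trim30a), against 4.92%. Of the members higher in SiglecH-Ly6C+ and SiglecH-Ly6C- pre-DC, only Samhd1 lay outside the near-identical clusters. In blood pre-DC only Samhd1 and Rtp4 did. These counts against the other gates were not repeated without the clusters.

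In GMP 7 members (17.5%) were higher, but so were 34.9% of all genes tested: Gbp3, Ifi27, Oas1a, Ifi35, Irgm1, Ifit2 and Cmpk2, a mitochondrial nucleotide kinase. In cMoP 3 members (7.50%) were higher, against 30.5% of genes tested, namely Gbp3, Oas1a and Eif2ak2. CLP had 2 higher (Ifi27 and Ifi27l2a), against 8.21%, and 9 lower (22.5%), against 13.7%. Pre-pro-B cells had 3 higher (Ifi27l2a, Ifi35 and Ifi44), against 10.1%. In the remaining gates the members were close to the genes at large. SiglecH+Ly6C- pre-DC had 3 higher (Stat2, Trim30a and Eif2ak2), against 7.31%, SiglecH+Ly6C+ pre-DC 3 (Trim30a, Ifi203 and Eif2ak2), against 5.55%, and CDP 2 (Ifi27 and Ddx58), against 8.16%.

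Members lower than the other gates by 1 or more were fewer than among genes at large in blood pre-DC, where 2 (Ifi27 and Stat2) stood against 20.3% of genes tested, and in pDC, where 2 (Ifi35 and Ifi205) stood against 15.4%. SiglecH-Ly6C- pre-DC had 4 lower (Ifi27l2a, Ifi27, Oas1a and Gbp3), against 8.07%, SiglecH-Ly6C+ pre-DC 1 (Ifi27), against 7.13%, and SiglecH+Ly6C+ pre-DC 2 (Ifi27 and Ifi205), against 7.34%. In SiglecH+Ly6C- pre-DC 3 were lower (Ifi27, Oas1a and Gbp3), against 2.77%, and in CDP 3 (Ifi27l2a, Ifi205 and Ifi35), against 2.69%. Pre-pro-B cells had 6 lower, against 13.1%, led by Eif2ak2 and Ddx58. GMP had 5 lower, against 7.99%, and cMoP 2 (Ifi27l2a and Ifi203), against 1.30%.

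Gates were also compared in 11 pairs along the lineage. Several pairs share a gate, so their values are not independent of each other. pDC were set against CDP, a progenitor population that can give rise to them. In pDC 2 members were higher by 1 or more, against 3.20% of genes tested, and 6 lower, against 18.6%. Ifi27l2a averaged 5.90 in pDC and 3.41 in CDP (difference 2.48) and Trim30a 6.08 and 4.61 (1.47), while Ifi27 averaged 1.26 in pDC and 3.98 in CDP (-2.72). The others lower in pDC were Xaf1 (-1.34), known as a promoter of cell death, Ifi35 (-1.26), Herc6 (-1.25), Rtp4 (-1.11) and Ifi203 (-1.07). Ifi35 and Ifi203 stood at differences of 0.090 and 0.043 when TPM were averaged before the log. Without CDP cell 57 the Rtp4 difference was -0.96, and without pDC cell 6 that of Ifi203 was -0.84. Within the shared run the counts were again 2 and 6, against 3.02% and 19.7%. The median difference was -0.12 over members and -0.25 over all genes tested.

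In pDC against SiglecH+Ly6C- pre-DC, which were likewise sorted for SiglecH, Oasl2 was higher by 1.04 (1 member, against 1.86% of genes tested), and Ifi35 (-2.49) and Samhd1 (-1.004) were lower (2 members, against 14.5%). The Oasl2 difference was 0.63 without pDC cell 15, and the Samhd1 difference fell inside 1 without any of 47 single cells.

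The SiglecH split was compared without and with Ly6C. Without it, Ifi205 averaged 0.92 in SiglecH+Ly6C- pre-DC and 8.64 in SiglecH-Ly6C- pre-DC, a difference of -7.71 that put it in the lowest 0.0428% of all genes tested in this pair. Ifi203 averaged 6.29 in SiglecH+Ly6C- pre-DC and 8.19 in SiglecH-Ly6C- pre-DC (-1.90), whereas Ifi27l2a averaged 5.73 and 2.80 (2.92) and Trim30a 6.32 and 5.19 (1.13). These were 2 members higher, against 8.93% of genes tested, and 2 lower, against 2.53%. In the 19 SiglecH+Ly6C- cells that shared a run with SiglecH-Ly6C- pre-DC, the differences were -6.51 for Ifi205, 3.50 for Ifi27l2a, -1.21 for Ifi203 and 0.79 for Trim30a, and the counts 5 and 3, against 11.7% and 3.23%.

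With Ly6C present, SiglecH+Ly6C+ pre-DC had Trim30a higher than SiglecH-Ly6C+ pre-DC by 1.33 (1 member, against 3.85%), and Ifi205 (-2.90) and Mx1 (-1.81) lower (2 members, against 3.26%). Of the 40 members 30 had a negative difference, with a median of -0.21 over members and 0.050 over all genes tested. These gates lay in different runs. Of the 8 listed monocyte genes, 7 were lower in SiglecH+Ly6C+ pre-DC by 1 or more and 1 (Ly6c2, 1.69) was higher. The part of monocyte RNA in the member differences of this pair was not tested. Within SiglecH+ cells, Ly6C- pre-DC had Stat2 higher than Ly6C+ pre-DC by 1.12 (1 member, against 6.27%), and Ifi203 (-2.06) and Trim30a (-1.24) lower (2 members, against 2.30%). Within their shared run the counts were the same, against 7.02% and 2.71%.

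Blood pre-DC were compared with an average over the 4 marrow pre-DC populations that weighted each equally. In blood 6 members were higher by 1 or more, against 3.22% of genes tested: Ifi27l2a (2.53), Oas1a (1.85), Rtp4 (1.54), Ifi204 (1.23), Xaf1 (1.19) and Oasl2 (1.16). Ifi203 (-1.66), Stat2 (-1.63), Trim30a (-1.52) and Eif2ak2 (-1.001) were lower (4 members, against 14.8%). Trim30a stood at 0.098 when TPM were averaged before the log. Without blood cell 16 the differences of Rtp4, Ifi204 and Oasl2 were 0.92, 0.70 and 0.63, and without blood cell 3 that of Xaf1 was 0.72. The Eif2ak2 difference came inside -1 without any 1 of 106 cells, and was nearest to 0, at -0.836, in 1 of these removals. All 8 listed monocyte genes were also higher in blood by 1 or more, led by Lyz2 at 6.39, with 6 of the 8 present in at least 50% of blood cells. Of 10 immediate-early genes, which are known to respond to handling of cells, 8 were higher. The blood cells came from 1 run of their own, and 1 of them had 69804 TPM of erythroid genes. The part of monocyte, immediate-early and erythroid RNA in the member differences was not tested, and blood and run cannot be told apart.

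Along the myeloid route, GMP set against LMPP had 7 members higher, against 39.3% of genes tested, and 7 lower, against 5.87%. The higher members were Ifi35 (2.61), Gbp3 (2.52), Samhd1 (2.35), Irgm1 (1.77), Oas1a (1.42), Cmpk2 (1.37) and Ifit2 (1.29). The lower ones were Ddx58 (-2.38), Rtp4 (-2.01), Oasl2 (-1.23), Ifi44 (-1.11), Ifi203 (-1.08), Oas2 (-1.05) and Oas3 (-1.03). Without LMPP cell 17 the Ifi44 difference was -0.94, and without GMP cell 22 that of Ifi203 was -0.99. Oas2 stood at -0.93 without LMPP cell 20, and Oas3 at -0.90 without LMPP cell 27. When TPM were averaged before the log, Irgm1 stood at -1.31, Ifi35 at -0.68 and Oas1a at -0.52, the opposite sign. Ifi35, for example, was present in 40 of 51 GMP with a maximum of 255 TPM, and in 16 of 65 LMPP with a maximum of 1106 TPM. In cMoP against GMP, Eif2ak2 (1.89), Ddx58 (1.85) and Trim30a (1.47) were higher (3 members, against 15.7%), and Ifi27 (-1.58), Ifi35 (-1.52), Irgm1 (-1.04) and Ifi27l2a (-1.03) lower (4 members, against 17.8%). Without GMP cell 2 the differences of Irgm1 and Ifi27l2a were -0.96 and -0.84.

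Along the lymphoid route, CLP against LMPP had Ifi27l2a higher by 4.43 (1 member, against 13.6%) and 5 members lower, against 7.69%: Ddx58 (-2.27), Dtx3l (-1.95), Oasl2 (-1.69), Oas3 (-1.15) and Ifi27 (-1.13). CLP and GMP lay in 1 run of library numbers. Against GMP, CLP had 4 members higher, against 1.60% of genes tested: Ifi27l2a (3.79), Ifi203 (1.72), Ifi44 (1.26) and Rtp4 (1.04). Without CLP cell 44 the Rtp4 difference was 0.86. The 6 lower, against 36.3%, were Samhd1 (-2.55), Gbp3 (-2.34), Ifi35 (-1.98), Oas1a (-1.37), Irgm1 (-1.22) and Dtx3l (-1.09); averaged before the log, Ifi35 stood at 0.17 and Irgm1 at 0.87. The pre-pro-B gate, of the same run, had Ifi27l2a (3.79), Trim30a (1.53), Ifi35 (1.52) and Stat2 (1.18) higher than CLP (4 members, against 7.67%), and Ifi27 (-1.78) and Rtp4 (-1.21) lower (2 members, against 5.03%).

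Single cells with many members occurred in every gate. Cells with 10 or more members present numbered 126 (20.52% of all cells, exact 95% interval 17.4 to 23.9%), the median cell had 7, and 1 LMPP cell had none. The share was 35.3% in GMP (18 of 51 cells, 22.4 to 49.9%), 33.3% in cMoP (22 of 66, 22.2 to 46.01%), 30.9% in SiglecH-Ly6C+ pre-DC (21 of 68, 20.2 to 43.3%) and 25% in blood pre-DC (4 of 16, 7.27 to 52.4%), against 7.41% of pDC (2 of 27, 0.910 to 24.3%) and 3.33% of pre-pro-B cells (1 of 30, 0.0844 to 17.2%). Over the cells of GMP and of cMoP, members present and genes at 1 TPM or more had a Spearman rho of 0.58 in each gate (Pearson r 0.64 over 51 GMP and 0.66 over 66 cMoP), values that share the same libraries and depth. In blood pre-DC rho was 0.46 (r 0.50, 16 cells) and in pre-pro-B cells 0.39 (r 0.65, 30 cells). In the other gates rho ran from 0.041 to 0.26.

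**Figure D5:**
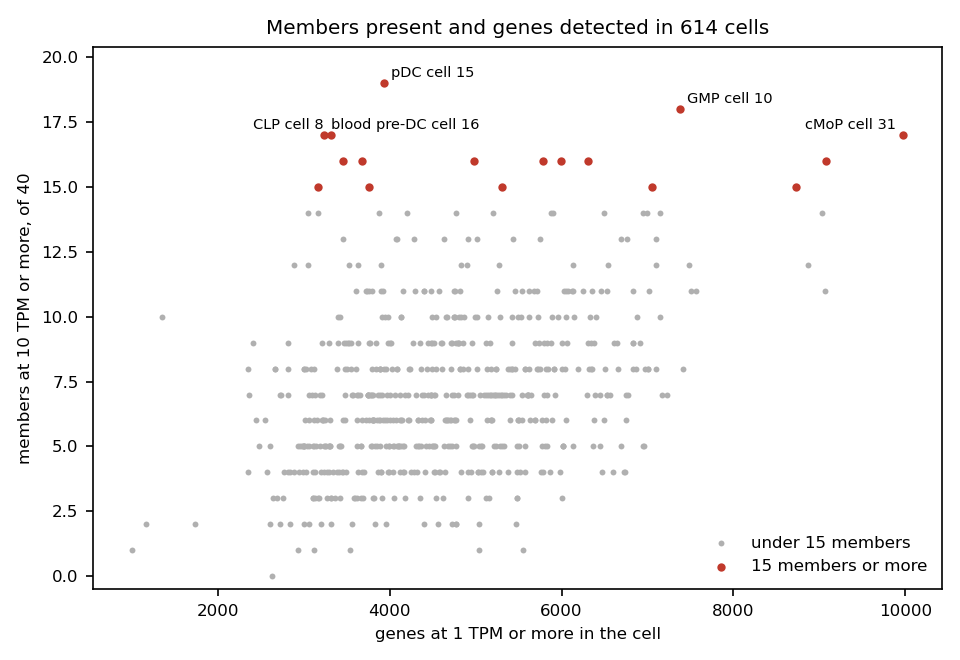
Members at 10 TPM or more (vertical) against genes at 1 TPM or more (horizontal) in every cell; red points are the 17 cells with 15 or more members. The red cells include pDC cell 15, with 19 members at 3932 genes, and cMoP cell 31, with 17 members at 9977 genes.

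The 17 cells with 15 or more members came from 11 gates and were of different kinds. The cell with the most was pDC cell 15, which had 19 members at 3932 genes, fewer than the pDC median of 4398. It held Ifi27l2a at 8494 TPM, Oasl2 at 4351 TPM, Trim30a at 2886 TPM, Ifi203 at 2408 TPM, Usp18 at 1068 TPM, Rsad2 at 652 TPM and Isg15 at 134 TPM, and it was the only cell with Ifit3 at 10 TPM or more (21.7 TPM). It had no Ifit1, Ifit2, Oas1a or Oas2. The other pDC had a median of 5 members.

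CLP cell 8 had 17 members at 3313 genes, close to the CLP median of 3280, with Usp18 at 1406 TPM. Blood pre-DC cell 16 had 17 at 3233 genes, with Mx1 at 2017 TPM, its gate's highest value. SiglecH-Ly6C+ pre-DC cell 4 had 16 at 3677 genes, among them Isg15, Ifit1, Oas1a, Oas2, Oasl2 and Usp18, which makes 6 of the 11 IFIT, OAS and ISG15-conjugation members. LMPP cell 20 had Isg15, Ifit1, Oas2, Oas3 and Oasl2 at 3162 genes, and LMPP cell 50 had Ifit1, Oas1a, Oas2, Oasl2 and Usp18 at 3756. Only 5 cells had 5 or more of those 11: these 3, LMPP cell 65 and CDP cell 11.

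In other cells the count went with broad detection and low levels. GMP cell 10 had 18 members at 7375 genes, the most of any GMP, with summed member levels of 1089 TPM, and cMoP cell 31 had 17 at 9977 genes, with 571 TPM summed. The same sum was 22723 TPM in pDC cell 15 and 8798 TPM in SiglecH-Ly6C+ pre-DC cell 4. Pre-pro-B cell 22 had 16 at 6310 genes, against its gate's median of 3316. Of the 8 monocyte-list genes, 5 were present in pDC cell 15, a gate in which 1 of the 8 was present in at least 50% of cells. SiglecH-Ly6C+ pre-DC cell 4, blood pre-DC cell 16 and GMP cell 10 had 7 each, in gates where 6 or 7 of the 8 were that frequent. Of the 6 erythroid genes, 3 were present in cMoP cell 33 and 2 each in cMoP cells 31 and 32 and pre-pro-B cell 22. No macrophage-list gene was present in any of the 17. Doublets were not called, and the part of doublets or of other cells' RNA in these counts was not tested.

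Genes around the pathway were taken from fixed name lists. Irf9 was highest in SiglecH-Ly6C+ pre-DC at 4.44 and lowest in blood pre-DC at 2.06 on the log2 scale. Of 12 receptor and signalling genes, 8 were higher by 1 or more in GMP than in LMPP, led by Ifngr1, the interferon-gamma receptor (4.67), and 1 lower (Jak1, -1.60). In CLP against GMP none of these 12 was higher and 7 were lower, beside 1.60% and 36.3% of all genes tested. The 6 interferon regulatory factors included Irf7, the factor behind type I interferon production, which averaged 3.25 in pre-pro-B cells and 3.04 in pDC, against 0.48 in blood pre-DC. In pDC against CDP, Irf8 (2.69) and Irf7 (1.57) were higher and Irf2 (-1.63) lower. Of 7 feedback inhibitors 5 were higher in GMP than in LMPP, led by the phosphatase Ptpn6 (4.05), and of 11 sensors upstream of interferon 6 were, led by Unc93b1, which carries toll-like receptors to endosomes (5.57); each count stands against 39.3% of all genes tested.

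A further 39 interferon-stimulated genes outside the 40 also differed gate by gate. Bst2 (tetherin, and a surface marker of mouse pDC) averaged 9.34 in pre-pro-B cells, 7.62 in SiglecH+Ly6C- pre-DC and 7.43 in pDC, against 1.14 in LMPP. Ifitm3, which blocks viral entry, averaged 10.5 in blood pre-DC and 10.3 in SiglecH-Ly6C+ pre-DC, against 1.28 in SiglecH+Ly6C- pre-DC. In pDC against CDP 5 of the 39 were higher and 10 lower, beside 3.20% and 18.6% of all genes tested. In blood against marrow pre-DC 4 were higher and 5 lower, beside 3.22% and 14.8%. In CLP against GMP none of the 39 was higher and 12 were lower, beside 1.60% and 36.3% of all genes tested.

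Interferon transcripts themselves were close to absent. Of 22 interferon symbols 15 were listed at 0 in every cell, Ifng among them, and Ifnb1 did not pass 3.85 TPM. No pDC reached 10 TPM of any. Ifna1 (228 TPM) and Ifna16 (49.6 TPM) were present in a single cell, cMoP cell 38, which had 9 members against its gate's median of 8; the Ifna genes are near-identical copies, so which of them was read is uncertain. Ifnk, interferon kappa, was at 10 TPM or more in 18 cells, 15 of them marrow pre-DC and 3 cMoP, with a maximum of 605 TPM in SiglecH-Ly6C+ pre-DC cell 24. Those 18 cells had from 1 to 13 members present.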

How the data were processed

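Single mouse cells were captured on a Fluidigm C1 and made into oligo-dT-primed, full-length cDNA libraries, per the labels' protocols. The authors deposited TPM per gene and cell; the submitters' processing notes name RSEM 1.2.19 and GRCm38. For the aligner, annotation and strand setting no entry was found, so they count as not given in the sources used here. Total TPM per cell ran from 997617 to 1000000, and read depth is unknown.

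From these, log2(TPM + 1) was averaged per gate, and differences between gate means were taken, with differences of 1 or more counted. Present means 10 TPM or more, and many means 10 or more members. Genes tested were those reaching 1 TPM in 5% of cells or more (14011 of 43280). With 1 sample per gate no test was possible. Intervals are exact Clopper-Pearson 95% intervals, and the upper limit for a count of 0 is 3 cells of the total. No cell was filtered, no doublet caller was run, and no 2 cells had identical values. Gene positions came from GENCODE M21 (GRCm38), promoters from RefSeq (GRCm38.p6).

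All 40 members could be named. Those named for a gate were its 5 highest and those 1 or more above the other gates; those named for a pair included its 3 highest and 3 lowest differences. The members, roles, lists and pairs were chosen with earlier results of these data known. The difference between group means was tried on the measured GMP cells, split at random, with known changes put into chosen genes. The exact interval was checked against another routine, and the other steps were not tried in this way. The work was done in Python 3.11.15 (pandas 2.3.3, numpy 2.4.6, matplotlib 3.10.9, scipy 1.17.1).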

Additional observations from a re-analysis of the deposited data

How the results depend on the processing

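No paired analysis was possible because each gate is 1 sample and the cell numbers only name cells. The 74 member differences of 1 or more had 475 values under the other settings tried, of which 467 kept their sign. The 8 that changed it did so when TPM were averaged before the log: for pDC against CDP Ifi35 (0.090) and Ifi203 (0.043), for blood against marrow pre-DC Trim30a (0.098), for CLP against GMP Ifi35 (0.17) and Irgm1 (0.87), and for GMP against LMPP Ifi35 (-0.68), Oas1a (-0.52) and Irgm1 (-1.31). That setting also gave a median member difference of 0.44 for CLP against GMP, -1.21 for GMP against LMPP and -0.69 for CLP against LMPP. The cause was not tested. Leaving out each cell in turn, added after seeing the data, kept 58 of the 74 at 1 or more and took 16 under it.

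At 1 TPM the members present per cell were 10.7 in pDC, 12.8 in blood pre-DC, 12.4 in CDP, 12.65 in cMoP, 11.9 in SiglecH+Ly6C- cells, 11.2 in SiglecH+Ly6C+ cells, 12.04 in SiglecH-Ly6C+ cells and 11.2 in SiglecH-Ly6C- cells. At 100 TPM they were 3.88 in CDP, 2.68 in cMoP, 2.12 in GMP, 3.61 for SiglecH+Ly6C- cells and 3.62 for SiglecH+Ly6C+ cells. Without members of near-identical clusters they were 4.07 for SiglecH+Ly6C- cells, 3.64 for SiglecH+Ly6C+ cells, 4.18 for SiglecH-Ly6C+ cells, 3.50 for SiglecH-Ly6C- cells, 4.41 in CDP, 3 in pre-pro-B cells and 5.16 in GMP. The share of all cells with many members was 40.4% at 8 members, 2.77% at 15 members, 1.47% at 100 TPM and 63.4% at 1 TPM.

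Counts of members past 1 in either direction moved by over 1.5 times as follows. For pDC against CDP 8 became 2 at pseudocount 10, 29 on averaged TPM and 4 without the clusters. For pDC against SiglecH+Ly6C- pre-DC 3 became 8 at pseudocount 0.1, 1 at 10 and 21 on averaged TPM. The SiglecH split without Ly6C went to 10 at 0.1, 17 on averaged TPM, 0 without the clusters and 8 in the shared run, beside 4, and with Ly6C to 10, 20 and 0, beside 3. The Ly6C split of SiglecH+ cells gave 6 at 0.1, 1 at 10, 17 on averaged TPM and 1 without the clusters, beside 3. Blood against marrow gave 17, 3, 26 and 4 in that order, beside 10, cMoP against GMP 12, 0, 19 and 4, beside 7, and CLP against GMP 16, 4, 20 and 6, beside 10. Pre-pro-B against CLP gave 11, 3, 22 and 3, beside 6, and CLP against LMPP 13, 2, 20 and 3, beside 6. GMP against LMPP gave 5 at 10 and 24 on averaged TPM, beside 14. With size factors the median over genes tested shifted by 0.16 in pDC against CDP, 0.14 in pDC against SiglecH+Ly6C- pre-DC, 0.10 in CLP against GMP and -0.16 in GMP against LMPP.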
